A study of Mus musculus with 18 samples.

Results

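Lrp5, Dvl3 and Gsk3b encode 3 steps of Wnt signal transduction, and they are the 3 of 40620 rows of the count table described here. They were chosen by gene symbol, with earlier results of these data known: Lrp5 was already known to be higher at 24h than at 0h, so its change from 0h is given as a description. RNA was sequenced from MC3T3-E1, a mouse preosteoblast line from newborn calvaria, under stable lentiviral expression of a short hairpin. The cells carried shRcor2-18 or shRcor2-20, which target the CoREST family corepressor gene Rcor2, or the control shScramble. The 3 constructs at 0h, 24h and 7d make 9 groups of 2 samples, or 18 libraries. The labels give the genotype of cells with either hairpin as RCOR2 knockdown and that of shScramble cells as WT. Osteogenic medium held 10 nM dexamethasone, 50 µg/ml ascorbic acid and 5 mM beta-glycerophosphate, per the labels' protocols. These name harvests at confluence and after 24 hours but not at 7d, so times are given as in the sample titles. Nothing says whether a construct was studied as 1 clone or a pool, nor does any label state that replicates came from separate cultures. The p-values therefore measure only how these samples spread, and that spread may be technical.

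Wnt ligands bind a Frizzled receptor together with LRP5 or LRP6, single-pass coreceptors of the cell surface. The receptor complex recruits Dishevelled, a scaffold protein of which DVL3 is one form, and this holds back GSK3β, the kinase that otherwise marks β-catenin for destruction. β-catenin that escapes destruction enters the nucleus and acts with TCF/LEF factors. In bone, loss of LRP5 lowers bone mass and gain-of-function changes in it raise bone mass, and stabilised β-catenin directs mesenchymal progenitors towards the osteoblast lineage.

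Row names in the deposited table go with the reads of another gene over most of the genome, so the position of each row was checked first. Names and reads were in register over 2 stretches from the chromosome starts, 518 of 646 coding rows of chromosome 16 (Olfr161 to Jam2) and 160 of 699 coding rows of chromosome 19 (Ighmbp2 to Nudt22). Inside them 20 of 21 members of broadly expressed families, such as ribosomal and respiratory chain proteins, reached 20 CPM (counts scaled to a common library total), with a median of 278 CPM, against 89 of 432 elsewhere, with a median of 0.449 CPM. A stretch was kept only where at least 90% of these family members reached 20 CPM, so the share inside was set by that choice and describes the stretches without testing them.

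Lrp5 (ENSMUSG00000024913) is coding row 7 of chromosome 19. Its neighbours Ppp6r3, a phosphatase subunit, and Suv420h1, a histone methyltransferase, held means of 851 and 273 CPM over the 15 libraries used, while Gal, a neuropeptide, and Mtl5, a germ cell gene, held 0.0135 and 0.332 CPM. Dvl3 (ENSMUSG00000003233) is coding row 193 of chromosome 16. There Ap2m1, a clathrin adaptor subunit, held 1048 CPM and Eif2b5, a translation factor subunit, 366 CPM, while the cytochrome P450 gene Cyp2ab1 held 0.0816 CPM. Gsk3b (ENSMUSG00000022812) is coding row 354 of chromosome 16, where Fstl1, a secreted glycoprotein of mesenchymal cells, held 1678 CPM, the copper chaperone gene Cox17 74.5 CPM, and the nuclear receptor gene Nr1i2 had no count. Each gene thus lay among widely used genes with reads and tissue-restricted genes almost without. The placement of Gsk3b is less firm than that of Dvl3 and Lrp5, because the search in other settings ended the stretch of chromosome 16 at Kpna1, after 322 rows and before Gsk3b.

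The annotation places no other gene over Lrp5. Dvl3 overlaps the antisense gene Gm16618, whose row held 4.09 CPM, and Gsk3b overlaps the small nucleolar RNA genes Gm25617 (3.99 CPM) and Gm27931 (6.53 CPM). The treatment of strand is not given in the sources used here, so reads of Dvl3 and of its antisense partner cannot be told apart.

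The start regions of Dvl3 and Gsk3b are shown, and that of Lrp5 is not, because Lrp5 had no promoter entry. The sequences let a reader see which proximal promoter elements Dvl3 and Gsk3b each carry. Both are RefSeq sequences of build GRCm38.p6, 250 bases before to 50 after the gene's start, on the plus strand, at chr16:20516736-20517035 for Dvl3 and chr16:38088751-38089050 for Gsk3b; 2 of the 3 genes had an entry. Capitals mark the GC box GGGCGG and the CCAAT box (CCAAT) on either strand.
Dvl3: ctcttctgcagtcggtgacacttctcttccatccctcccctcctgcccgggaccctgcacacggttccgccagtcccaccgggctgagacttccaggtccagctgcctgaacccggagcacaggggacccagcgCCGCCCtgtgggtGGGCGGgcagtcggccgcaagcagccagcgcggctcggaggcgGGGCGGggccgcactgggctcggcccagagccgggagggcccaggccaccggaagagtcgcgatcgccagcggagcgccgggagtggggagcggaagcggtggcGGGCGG
Gsk3b: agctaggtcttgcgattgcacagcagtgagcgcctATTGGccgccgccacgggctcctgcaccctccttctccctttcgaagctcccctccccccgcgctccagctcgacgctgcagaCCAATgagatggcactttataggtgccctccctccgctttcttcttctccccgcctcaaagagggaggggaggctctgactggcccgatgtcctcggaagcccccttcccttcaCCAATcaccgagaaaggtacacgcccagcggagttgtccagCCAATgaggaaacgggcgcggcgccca
The Dvl3 window held 4 GC boxes and no CCAAT box, at 74% GC, and the Gsk3b window held 4 CCAAT boxes and no GC box, at 63% GC, against a median of 52.7% GC over all promoters. A GC box was found in 35.7% of 32851 RefSeq promoters and a CCAAT box in 37.4%. Neither window held the TCF/LEF core CTTTGAT on either strand, which 3.7% of promoters held. The Gsk3b window held 1 TATAAA on the minus strand, a motif found in 13.6% of promoters. No searched motif overlapped another. These matches describe letters and not binding.

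Library totals ran from 2572026 to 9798498 counts over the 18 libraries, and from 3504808 to 6139315 over the 15 used. Sample 1 of each construct at 0h was left out of the tests: across rows these 3 libraries correlated at 0.985 to 0.99 with each other and at 0.729 to 0.755 with the other 15, which correlated at 0.847 to 0.909. Each construct therefore had 1 library at 0h, assumed to vary like the other groups. By distance over the coding genes of the matched stretches, 0 of the 18 libraries had their labelled replicate as the closest library. Each was closest to a library of another construct at the same time. Each comparison of constructs below rests on groups that the libraries did not form over these genes. Values at 0h for the libraries left out stand in the closing section. The row named Rcor2 held 195 to 268 CPM and did not pass the test over all times (log2 fold change 0.10 ± 0.06, SE; edgeR adjusted p = 0.832), and it lies outside the matched stretches, so it does not check the silencing. Rows of the osteoblast markers lie outside these stretches as well and could not be used to check the cell type; Adipoq, an adipocyte marker inside them, held 0.199 CPM. In bulk RNA, fewer cells of a type and less RNA per cell cannot be told apart.

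Lrp5, the coreceptor, had the highest level of the 3 genes per exon length, and its level was higher at 24h and 7d than at 0h with every construct. With shRcor2-18 it had 958 CPM at 0h, 2235 and 2356 CPM at 24h, and 2502 and 2600.1 CPM at 7d. With shRcor2-20 it had 1030.2 CPM at 0h, 2269 and 2167 CPM at 24h, and 2918 and 2286 CPM at 7d. With shScramble it had 658 CPM at 0h, 2103 and 2265 CPM at 24h, and 3043 and 2613 CPM at 7d. All 12 later libraries lay above the 3 libraries of 0h, with 2103 CPM the lowest value later and 1030.2 CPM the highest at 0h. How many rows of the whole table separate likewise was not counted. The later times overlapped, with 2286 CPM the lowest value at 7d and 2356 CPM the highest at 24h.

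**Figure D1:**
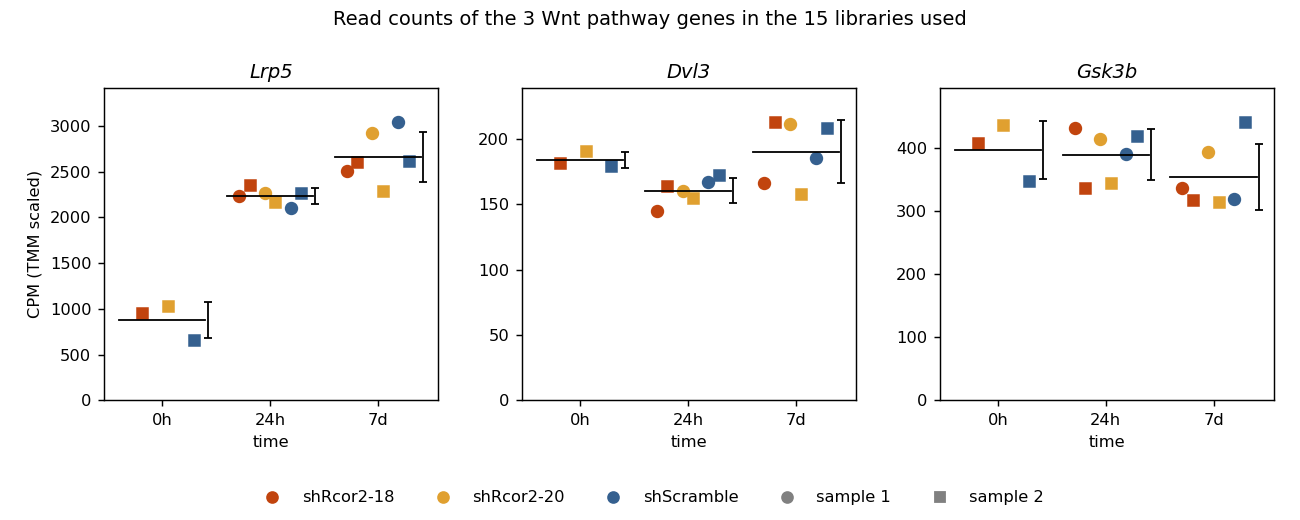
CPM (TMM scaled, linear axis from 0) of Lrp5, Dvl3 and Gsk3b at 0h, 24h and 7d in the 15 libraries used; colours are constructs, circles sample 1 and squares sample 2, and black lines give the mean with its SD over 3, 6 and 6 libraries. Lrp5 stands at 658 to 1030.2 CPM at 0h and at 2103 to 3043 CPM later, while Dvl3 and Gsk3b stay between 145 and 213 CPM and between 314 and 441 CPM.

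The mean of Lrp5 was 882 ± 197 CPM at 0h, 2232 ± 88.0 CPM at 24h and 2660.4 ± 277 CPM at 7d (SD, n = 3, 6 and 6 libraries). On the log2 scale the fold change was 1.37 ± 0.10 at 24h over 0h (SE; 2.58-fold) and 1.62 ± 0.10 at 7d over 0h (3.07-fold). These comparisons share the libraries of 0h. With sample 1 at 0h included (18 libraries) the values were 1.09 ± 0.16 and 1.36 ± 0.16. In the first, 1.86% of 12930 rows passed the test (adjusted p under 0.05), and in the second 5.76%, and nothing is read from that for Lrp5, since its rise was known when it was chosen. With sample number within construct as a block these counts fell to 56 rows, against 240 without it, and to 432 rows, against 745, while the fold changes of Lrp5 were 1.33 and 1.58. The ratio to a construct's own 0h library was largest with shScramble, whose 0h library was the lowest (658 CPM). A low divisor raises a ratio by itself. Means at 24h were 2295, 2218 and 2184 CPM with shRcor2-18, shRcor2-20 and shScramble, and at 7d 2551, 2602 and 2828 CPM. Of the 0h libraries left out, shRcor2-20 (1103 CPM) and not shScramble (1117 CPM) was lowest, on a scale set over 18 libraries. At 24h the ratio was 2.40 with shRcor2-18 and 2.15 with shRcor2-20, against 3.32 with shScramble. At 7d it was 2.66 with shRcor2-18 and 2.53 with shRcor2-20, against 4.30 with shScramble. Each of these ratios rests on 1 library at 0h, and the difference between constructs in the change from 0h was not tested.

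From 24h to 7d, a comparison without the 0h libraries, the log2 fold change of Lrp5 was 0.25 ± 0.08 (SE; 95% interval 0.07 to 0.43; unadjusted p = 0.0121) and did not pass the test in edgeR (adjusted p = 0.138), where 2.34% of rows did, or 302 (169 with the block, where Lrp5 had 0.25). DESeq2 put it past the threshold at 0.27 ± 0.08 (adjusted p = 0.0128), in a comparison where DESeq2 called 1076 rows. The mean at 7d was 1.19 times that at 24h.

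Dvl3, one of 3 Dishevelled scaffolds of the mouse, had the lowest mean level of the 3 genes per exon length. With shRcor2-18 it had 182 CPM at 0h, 145 and 164 CPM at 24h, and 166 and 213 CPM at 7d. With shRcor2-20 it had 191 CPM at 0h, 160.0 and 154 CPM at 24h, and 211 and 158 CPM at 7d. With shScramble it had 179 CPM at 0h, 167 and 173 CPM at 24h, and 185 and 209 CPM at 7d. All 6 libraries of 24h lay below all 3 of 0h, by a small margin (173 against 179 CPM at the nearest), and the libraries of 7d spread over both. The share of all rows that separate in this way was not counted, so nothing is read from it for Dvl3. In the shRcor2-18 and shRcor2-20 groups at 7d, the 2 samples differed by more than any 24h library differed from any other.

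The mean of Dvl3 was 184 ± 6.08 CPM at 0h, 160.4 ± 9.75 CPM at 24h and 190.3 ± 24.3 CPM at 7d (SD, n = 3, 6 and 6). Its log2 fold change was -0.20 ± 0.12 at 24h over 0h (SE; 95% interval -0.48 to 0.08; edgeR adjusted p = 0.62) and 0.05 ± 0.12 at 7d over 0h (-0.23 to 0.33; edgeR adjusted p = 0.914). From 24h to 7d it was 0.25 ± 0.10 (0.02 to 0.48; unadjusted p = 0.0391, edgeR adjusted p = 0.25). Dvl3 thus passed the test in no comparison of times, and the widest bounds of its intervals were -0.48 and 0.48 on the log2 scale. The comparisons with 0h depended on the libraries left out: with all 18, the values were -0.67 ± 0.21 at 24h (edgeR adjusted p = 0.14) and -0.40 ± 0.21 at 7d (edgeR adjusted p = 0.254), the second with its sign turned.

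Gsk3b, the kinase of the destruction complex, lay between the other members in mean level per exon length. With shRcor2-18 it had 407 CPM at 0h, 431 and 336 CPM at 24h, and 336 and 318 CPM at 7d. With shRcor2-20 it had 436 CPM at 0h, 414 and 343 CPM at 24h, and 392 and 314 CPM at 7d. With shScramble it had 346 CPM at 0h, 390 and 418 CPM at 24h, and 319 and 441 CPM at 7d. The 3 times overlapped: the lowest library at 24h (336 CPM) was below the lowest at 0h (346 CPM), and the highest at 7d (441 CPM) was above the highest at 24h (431 CPM).

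The mean of Gsk3b was 396 ± 45.5 CPM at 0h, 389 ± 40.3 CPM at 24h and 353 ± 51.9 CPM at 7d (SD, n = 3, 6 and 6). Its log2 fold change was -0.02 ± 0.14 at 24h over 0h (SE; 95% interval -0.34 to 0.30; edgeR adjusted p = 1.00), -0.16 ± 0.14 at 7d over 0h (-0.48 to 0.16; edgeR adjusted p = 0.594) and -0.14 ± 0.11 at 7d over 24h (-0.40 to 0.12; edgeR adjusted p = 0.604). None of the 3 passed the test. With all 18 libraries the values over 0h were -0.70 ± 0.27 at 24h (edgeR adjusted p = 0.185) and -0.82 ± 0.27 at 7d (edgeR adjusted p = 0.0904), larger in size and again not past the test.

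Because the libraries did not group by label, Gsk3b is also given by the pairs of libraries that were closest. At 7d, these were sample 1 of shRcor2-18 with sample 1 of shScramble, sample 1 of shRcor2-20 with sample 2 of shScramble, and sample 2 of both hairpins. Gsk3b there had 336 and 319 CPM, 392 and 441 CPM, and 318 and 314 CPM in these pairs. At 24h the same pairs had 431 and 390 CPM, 414 and 418 CPM, and 336 and 343 CPM, although sample 1 of shRcor2-20 was then closest to sample 2 of shRcor2-18. At both times sample 2 of both hairpins were lower than sample 1 of the same construct, and at 24h the samples of each hairpin differed by more than the construct means, which were 383 CPM with shRcor2-18, 379 CPM with shRcor2-20 and 404 CPM with shScramble. At 7d these pairs had, in the same order, 2502 and 3043 CPM, 2918 and 2613 CPM, and 2600.1 and 2286 CPM of Lrp5. Dvl3 had 166 and 185 CPM, 211 and 209 CPM, and 213 and 158 CPM in them. Libraries of a pair thus did not all lie close in Lrp5 and Dvl3. The distances were taken over genes of the matched stretches, with the members among them. Whether this structure bears on the tests of the hairpins was not tested.

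Per kilobase of exon, the order of the 3 genes was the same at every time, with Lrp5 above Gsk3b and Gsk3b above Dvl3 in mean level. Lrp5 had 90.6 ± 20.2, 229 ± 9.04 and 273 ± 28.5 CPM per kilobase at 0h, 24h and 7d (SD, n = 3, 6 and 6; 9738 exon bases). Gsk3b had 40.3 ± 4.63, 39.5 ± 4.10 and 35.9 ± 5.28 CPM per kilobase (9831 bases), and Dvl3 had 28.7 ± 0.949, 25.02 ± 1.52 and 29.7 ± 3.80 CPM per kilobase (6410 bases). Lrp5 stood clear of the other members in every library, while Gsk3b and Dvl3 came within their spread at 7d, where the lowest ratio of Gsk3b to Dvl3 in a library was 0.972. The ratio of Lrp5 to Gsk3b per exon length was 2.23 ± 0.268 at 0h, 5.86 ± 0.716 at 24h and 7.71 ± 1.20 at 7d. It ranged from 1.92 to 2.39 at 0h and from 5.23 to 9.63 at the later times. The range at 0h leaves out sample 1 of each construct. There Lrp5 had 1103 to 1402 CPM and Gsk3b 798 to 918 CPM, on a scale set over 18 libraries. As the ratio follows the rise of Lrp5 known beforehand, it is a description. Among the 465 tested coding genes of the matched stretches, Lrp5 ranked number 29, Gsk3b 185 and Dvl3 226 per exon length.

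The comparison the series was made for sets both hairpins against shScramble. Over all times, the log2 fold change of the hairpins over shScramble was 0.17 ± 0.08 for Lrp5 (SE; 95% interval -0.01 to 0.35; edgeR adjusted p = 0.782), -0.05 ± 0.10 for Dvl3 (-0.28 to 0.18; edgeR adjusted p = 1.00) and 0.01 ± 0.11 for Gsk3b (-0.25 to 0.28; edgeR adjusted p = 1.00). None passed the test, and 0.00773% of rows did, or 1 of 12930. Without the shScramble library of 0h, which leaves 24h and 7d only, the value of Lrp5 was -0.04, and it was -0.04 for shRcor2-18 and -0.05 for shRcor2-20 without that library or the 0h library of the hairpin itself. The upper bound for Lrp5 was 0.35 on the log2 scale, and those for Dvl3 and Gsk3b were 0.18 and 0.28. With shRcor2-18 alone the values were 0.16 ± 0.09, -0.06 ± 0.12 and -0.02 ± 0.13 for Lrp5, Dvl3 and Gsk3b, and with shRcor2-20 alone 0.18 ± 0.09, -0.04 ± 0.12 and 0.04 ± 0.13. Neither hairpin alone passed the test for any of the 3 genes, with 0.101% of rows past it for shRcor2-18 and 0.0387% for shRcor2-20.

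Lrp5 at 0h was the member furthest from 0 in these comparisons. It had 958 CPM with shRcor2-18 and 1030.2 CPM with shRcor2-20, against 658 CPM with shScramble, each in 1 library. The log2 fold change was 0.59 ± 0.17 (SE; 95% interval 0.20 to 0.99; unadjusted p = 0.00818), which did not pass the test in edgeR (adjusted p = 0.446), while DESeq2 gave 0.59 ± 0.17 past the threshold (adjusted p = 0.0366). In this comparison 0.155% of rows passed in edgeR. DESeq2 called more rows than edgeR there, with its count in the closing section. With all 18 libraries, where 2 samples stood for each construct at 0h, the value of Lrp5 was 0.34 ± 0.24 (edgeR adjusted p = 1.00). At 24h Lrp5 differed by 0.05 ± 0.12 (0.0155% of rows passed) and at 7d by -0.14 ± 0.12 (0.0387% of rows passed), neither past the test, and the value at 24h was -0.01 without sample 1 of shScramble.

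Dvl3 and Gsk3b did not pass the test at any time. For Dvl3 the hairpins over shScramble gave 0.05 ± 0.21 at 0h, -0.12 ± 0.15 at 24h and -0.08 ± 0.15 at 7d on the log2 scale (SE). For Gsk3b they gave 0.28 ± 0.25 at 0h, -0.09 ± 0.17 at 24h and -0.16 ± 0.17 at 7d. The edgeR adjusted p of these 6 values ran from 0.836 to 1.00. The change from 24h to 7d with both hairpins, less that with shScramble, was -0.18 ± 0.17 for Lrp5, 0.05 ± 0.21 for Dvl3 and -0.08 ± 0.24 for Gsk3b (edgeR adjusted p = 1.00 for each), in a comparison where 0.0541% of rows passed.

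**Figure D2:**
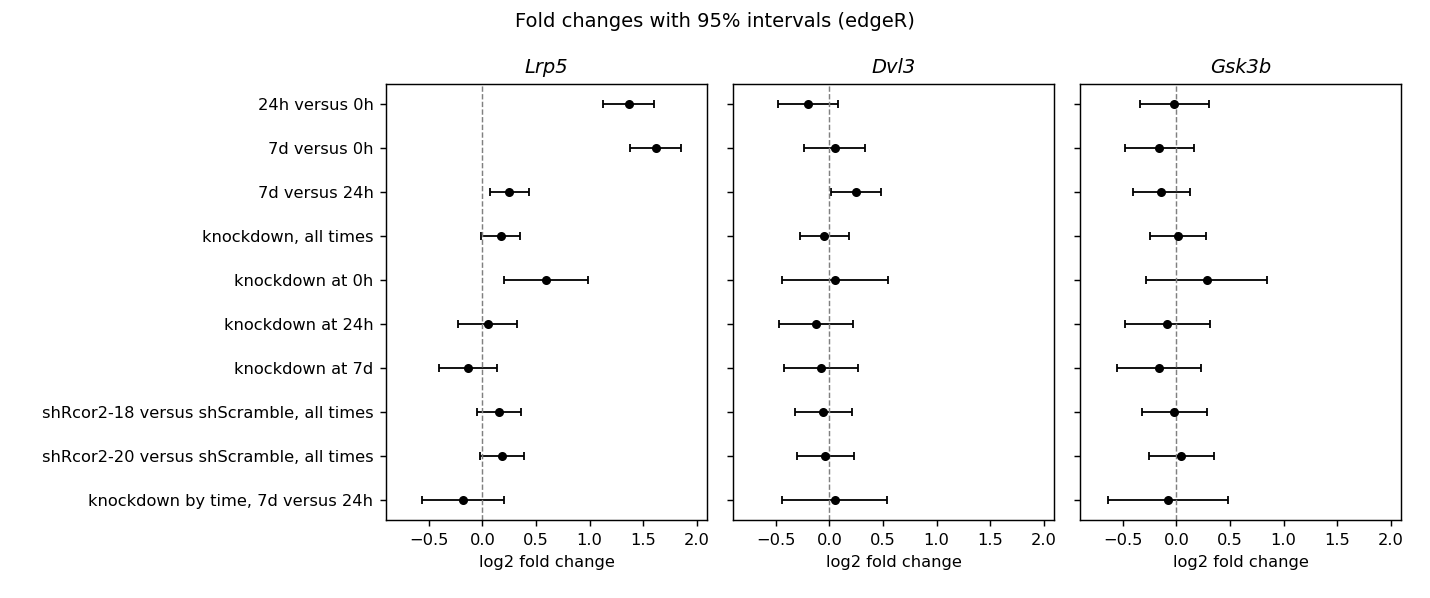
Log2 fold changes (points) with 95% intervals (bars) of Lrp5, Dvl3 and Gsk3b in the 10 comparisons, on 1 shared axis; knockdown is both hairpins over shScramble. Lrp5 at 24h and 7d over 0h stands at 1.37 and 1.62, which is a description of a rise known beforehand, and every other point lies between -0.20 and 0.59.

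Little of the rest of the pathway could be followed. The 7 Wnt lists held 213 gene symbols, some of them older and newer names of the same gene. Of these symbols, 209 had a row and 8 lay in the matched stretches. All 8 were tested: the 3 members with Senp2, Crebbp, Plcb3, Fosl1 and Snai2. None of the ligands and none of the secreted or membrane inhibitors was among them, nor were Lrp6, Dvl1, Dvl2 and Gsk3a, the closest relatives of the 3 genes. Over all 8 genes the median log2 fold change was -0.08 at 24h over 0h, -0.01 at 7d over 0h and 0.00 at 7d over 24h, against 0.06, 0.07 and -0.02 over all rows tested. Over the 465 tested coding genes of the matched stretches the median was -0.01, 0.02 and 0.03 in the same order.

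Of the 5 genes other than Lrp5, Dvl3 and Gsk3b, 0 rose and 0 fell at 24h over 0h in edgeR (0 also in DESeq2), where 1.47% of all rows rose and 0.387% fell. At 7d over 0h 0 rose and 1 fell, where 3.27% of all rows rose and 2.49% fell. Of the 465 tested coding genes of the matched stretches, 5 rose and 5 fell at 24h over 0h. At 7d over 0h 23 of these 465 rose and 33 fell. The 1 of the 5 Wnt genes that fell was Fosl1, an AP-1 transcription factor often cited as a Wnt target. It averaged 169 ± 10.6 CPM at 0h, 92.9 ± 31.1 CPM at 24h and 59.6 ± 19.9 CPM at 7d (SD, n = 3, 6 and 6). Its range was 32.1 to 81.2 CPM at 7d and 156 to 175 CPM at 0h. At 7d over 0h its log2 fold change was -1.52 ± 0.31 (SE; edgeR adjusted p = 0.0279), a call that was lost with sample number within construct as a block (-1.28; edgeR adjusted p = 0.0673). With all 18 libraries the values of Fosl1 were larger in size, at -2.36 ± 0.40 at 7d over 0h (edgeR adjusted p = 0.00691) and -1.74 ± 0.39 at 24h over 0h (edgeR adjusted p = 0.0544), against -0.88 ± 0.31 at 24h over 0h in the 15 libraries (edgeR adjusted p = 0.303). Leaving out 1 library kept the sign of Fosl1 in all 15 cases and ended the call in 7, namely each of the 3 libraries of 0h, sample 1 of each construct at 7d and sample 2 of shRcor2-20 at 7d, with values between -1.33 and -1.72 in these 7. The values of Fosl1 and Snai2 at 7d over 0h were known from earlier results of these data, so the count at 7d over 0h is a description.

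Snai2, a zinc finger repressor of epithelial genes, averaged 228 ± 39.2 CPM at 0h, 146 ± 38.1 CPM at 24h and 131 ± 35.7 CPM at 7d. Its log2 fold change at 7d over 0h was -0.79 ± 0.28 (SE; edgeR adjusted p = 0.158), and with all 18 libraries it passed the test at -0.91 (edgeR adjusted p = 0.0465). Its ranges at 24h and 0h overlapped, with 194 CPM the highest at 24h and 182 CPM the lowest at 0h. Senp2, a SUMO protease that acts on the destruction complex, averaged 191 ± 14.9, 208 ± 13.6 and 223 ± 16.4 CPM at 0h, 24h and 7d, with 0.22 ± 0.09 at 7d over 0h (edgeR adjusted p = 0.204), a sign that turned with all 18 libraries (-0.50 ± 0.28; edgeR adjusted p = 0.283). Crebbp, a histone acetyltransferase that β-catenin recruits, stood at 0.01 ± 0.09 (edgeR adjusted p = 1.00), and at -0.47 with all 18 libraries. Plcb3, a phospholipase of the calcium branch, held a mean of 1.95 to 2.06 CPM at each time. From 24h to 7d, and in each of the 7 comparisons of constructs, 0 of these 5 genes passed the test in edgeR or DESeq2 in either direction. DESeq2 gave no adjusted p for 1 of the 5 in the knockdown at 0h, at 24h and for shRcor2-18 over all times. At an unadjusted edgeR p under 0.05 the count was 1 of 5 at 24h over 0h (Fosl1), beside 1481 of 12930 rows, 3 of 5 at 7d over 0h (Fosl1, Snai2 and Senp2), beside 2650 rows, and 1 of 5 at 7d over 24h (Fosl1 at -0.64 ± 0.26), beside 2308 rows. It was 0 of 5 in each comparison of constructs, beside 353 to 970 rows.

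**Figure D3:**
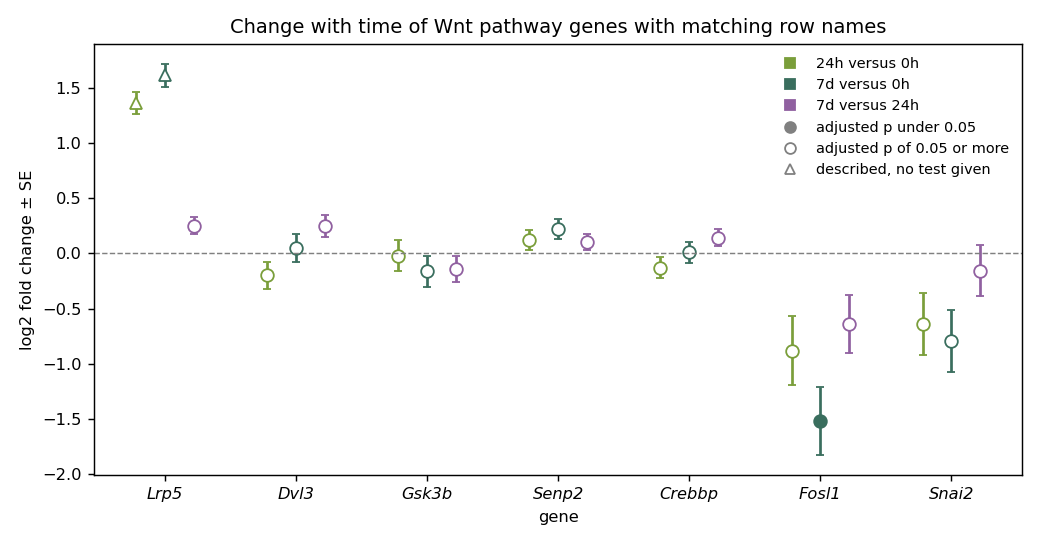
Log2 fold changes with SE (bars) for the 3 comparisons of times in Lrp5, Dvl3, Gsk3b and the other Wnt pathway genes tested, without Plcb3, which held about 2 CPM; filled circles have an edgeR adjusted p under 0.05, open circles 0.05 or more, and triangles are values of Lrp5 given with no test. The filled circle is Fosl1 at 7d over 0h (-1.52), a value known from earlier results of these data. Its call was lost with sample number within construct as a block.

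The genes most like each member across the 15 libraries were taken from the other 464 tested coding genes of the stretches, by Pearson's r of log2 CPM; the libraries share depth and time, so r is a description. For Lrp5 they were Actn3, a fast-fibre muscle actinin (r = 0.97), Cblb, a ubiquitin ligase (0.965), Cebpd, a CCAAT/enhancer-binding transcription factor (0.916), and Vasn, a membrane protein that binds TGF-β (0.888). These had log2 fold changes of 4.03, 0.95, 1.36 and 0.40 at 24h over 0h, beside 1.37 for Lrp5, and of 0.64, 0.19, -0.03 and -0.01 at 7d over 24h, beside 0.25. Actn3 was the only 1 of 6 skeletal muscle markers in a matched stretch, with a mean of 82.8 CPM, and its part in the values of Lrp5 was not tested.

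For Dvl3 the most alike were Cd248, a stromal cell surface protein (r = 0.874), Glis2, a zinc finger factor (0.773), Fam43a (0.761) and Ephb3, an ephrin receptor (0.712). All 4 had values below 0 at 24h over 0h, between -0.33 and -0.69 on the log2 scale. At 7d over 24h their values were above 0, between 0.30 and 0.76. Dvl3 had -0.20 and 0.25 in these comparisons, neither past the test. For Gsk3b the most alike were 1810013L24Rik (0.844), Mkl2, a coactivator of serum response factor (0.822), Mgrn1, a ubiquitin ligase (0.757), and Itgb5, an integrin subunit (0.753). Their log2 fold changes lay between -0.17 and 0.04 at 24h over 0h and between -0.09 and -0.46 at 7d over 24h. All these genes were chosen by r over the same libraries. Directions of change shared with a member follow in part from that choice, so nothing is read from them.

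**Figure D4:**
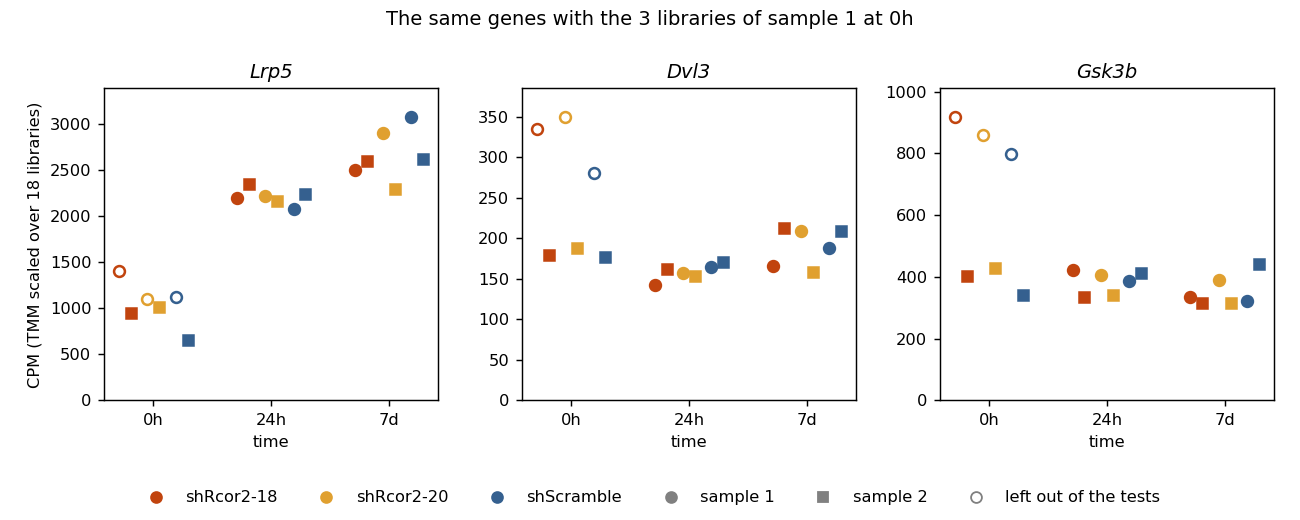
CPM (TMM scaled over all 18 libraries, linear axis from 0) of the 3 genes by time, with the 3 libraries of sample 1 at 0h as open circles. The open circles of Dvl3 (281 to 350 CPM) and Gsk3b (798 to 918 CPM) lie above every other library of these genes, while those of Lrp5 (1103 to 1402 CPM) lie between the other 0h libraries and the later ones.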

How the data were processed

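The deposited file is 1 table of raw counts by the authors, whole numbers in 40620 gene rows and 18 libraries. FastQC and TopHat2 2.0.9, the build mm9, DESeq and DESeq2 are named, per the submitters' processing notes; how reads were counted (program, annotation, strand) is not given in the sources used here. Counts of a library sum to 2572026 to 9798498, and tests and intervals rest on the spread between libraries.

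Row names were matched to reads after the data were examined. Identifiers were placed in gene order with GENCODE vM21 (GRCm38), which served for names, gene types, order and exon lengths only. From each chromosome start, 646 genes that most cells express, listed by hand, counted as detected from 20 CPM upward on average; the assumed detection rate was 0.9 where names match and 0.4 where they do not. The best-scoring stretch by log likelihood ratio was kept with at least 10 genes, a ratio of 3 and at least 5 members of broadly expressed families, not scored in the search, of which 90% were detected, and 3 genes were dropped at its end. 2 other settings, which scored other coding genes at 0.6 as well or alone, were tried first. They ended chromosome 16 at Kpna1 (322 rows) and chromosome 19 at Eef1g (211 rows) or Atl3 (174 rows), and the setting used was chosen after this was seen.

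Tests used edgeR 4.0.16 (R 4.3.3; filterByExpr over 9 groups, TMM, robust glmQLFit and glmQLFTest, Benjamini-Hochberg over 12930 rows, threshold 0.05) on 15 libraries, with 9 group means and 6 residual degrees of freedom. Knockdown is the mean of both hairpins minus shScramble. An SE is the log2 fold change over √F. DESeq2 1.42.0 was an alternative. CPM are scaled by TMM library sizes, and CPM in the check of row names are unscaled. Tested on simulated data for 7d versus 24h (11649 rows), the fit recovered 99 of 100 rows changed by 2-fold and 100 of 100 changed by 4-fold, with 5 false calls. The simulation gave every row the same assumed spread, changed only rows with higher counts and held no pairs of libraries. In the data the median SE over all rows tested was 0.316 for 7d versus 24h. The recovery counts therefore do not show that a row not called lacks a 2-fold change.

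Deviations from group means correlated at 0.332 to 0.446 between the 24h and 7d libraries of the same construct and number. These were therefore taken as paired in the replicate block only. The main tests, with their SE and intervals, leave this pairing out. The labels state no pairing, and with 2 samples per group both pairs of a construct give the same value. The members and gene lists were chosen with earlier results of these data known. Named genes are the 3 members, Wnt list genes in register and tested, the 4 genes most like each member, 3 neighbours on each side and Rcor2. Marker lists for 5 cell types were used only where in register, which left Adipoq and Actn3 (82.8 CPM).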

Additional observations from a re-analysis of the deposited data

Results flagged for a closer look

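The 3 libraries left out of the tests, sample 1 of each construct at 0h, held higher scaled levels of Dvl3 and Gsk3b than any of the 15 libraries used. On a scale set over all 18 libraries, Dvl3 had 335 CPM with shRcor2-18, 350 CPM with shRcor2-20 and 281 CPM with shScramble, against 177 to 188 CPM in sample 2 at 0h and 142 to 213 CPM at the later times. Gsk3b had 918 CPM with shRcor2-18, 860 CPM with shRcor2-20 and 798 CPM with shScramble, against 342 to 429 CPM in sample 2 at 0h and 314 to 441 CPM later. Lrp5 had 1402, 1103 and 1117 CPM in the same order of constructs, against 650 to 1014 CPM in sample 2 at 0h and 2079 to 3076 CPM later. These libraries stood apart over all rows as well, and the part of this in the values of the 3 genes was not tested.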

How the results depend on the processing

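Each comparison was repeated, as planned, with RLE size factors, library size only, no filter, DESeq2, in-register genes only, all 18 libraries, a replicate block, and without each library. Lrp5, described without a test against 0h, ran from 1.095 to 1.398 at 24h and 1.365 to 1.644 at 7d over 0h in the 7 settings, and from 1.183 to 1.495 and 1.374 to 1.758 without each library. With RLE no result changed its sign or call, and no count moved by over 1.5 times.

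With library size only, Gsk3b over all times (-0.025) and Dvl3 at 0h (-0.011) in the knockdown and Crebbp at 7d over 0h (-0.022) changed sign, as did Gsk3b over all times with no filter (-0.007). With in-register genes only, Gsk3b had 0.011 at 24h over 0h and 0.004 for shRcor2-18, and Snai2 at 7d over 0h passed (-0.772; edgeR adjusted p = 0.0482). With all 18 libraries Dvl3 had -0.401 at 7d over 0h and 0.004 for shRcor2-20, Gsk3b had -0.021 in the knockdown over all times and -0.012 for shRcor2-20, Crebbp had -0.47 at 7d over 0h, Senp2 had -0.616 at 24h and -0.497 at 7d over 0h, and Snai2 passed at 7d over 0h (-0.909; edgeR adjusted p = 0.0465). DESeq2 put Lrp5 past the threshold at 7d over 24h (0.265) and in the knockdown at 0h (0.586). The cause was not tested.

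Counts of rows called moved more. For 24h over 0h, 7d over 0h and 7d over 24h (240, 745 and 302 rows), DESeq2 gave 578, 1406 and 1076, in-register genes 20, 121 and 88 (fewer genes tested), and 18 libraries gave 38 for 7d over 24h. For the knockdown over all times (1 row), the counts were 8 with library size only, 20 with no filter and 109 with DESeq2. At 0h (20 rows) they were 41 with no filter and 146 with DESeq2, at 24h (2 rows) 4 and 29, and at 7d (5 rows) 21 with DESeq2. For shRcor2-18 (13 rows) they were 20 and 73, for shRcor2-20 (5 rows) 18 and 70, and for the change with time (7 rows) 33 with DESeq2. With in-register genes or 18 libraries, 0 rows were called in each of these 7 comparisons.

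With number within construct as a replicate block, 56, 432 and 169 rows were called for the 3 comparisons of times, and Fosl1 at 7d over 0h had -1.285 (edgeR adjusted p = 0.0673); the block changed no other call among Lrp5, Dvl3, Gsk3b, Senp2, Crebbp, Fosl1 and Snai2. Number across constructs was not taken as a pairing, with correlations of deviations from -0.08 to 0.33. The highest of these is close to the lowest within a construct (0.332), and the labels state neither pairing. As a block, number across constructs called 0 rows for the knockdown over all times, 6 at 0h, 3 at 24h (2 without it) and 0 at 7d. It called 1 row for shRcor2-18, 0 for shRcor2-20 and 2 for the change with time.

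Without each library, rows called ran from 126 to 231 at 24h over 0h, 310 to 762 at 7d over 0h and 120 to 307 at 7d over 24h, the lowest without the shScramble library of 0h, the same library, and sample 1 of shRcor2-20 at 24h. They ran from 0 to 14 for the knockdown over all times, 9 to 24 at 0h, 2 to 12 at 24h, 5 to 15 at 7d, 8 to 19 for shRcor2-18, 0 to 8 for shRcor2-20 and 4 to 11 for the change with time. Gsk3b ran from -0.144 to 0.069 at 24h over 0h, -0.123 to 0.096 in the knockdown over all times, -0.377 to 0.091 at 7d, -0.146 to 0.064 for shRcor2-18, -0.1 to 0.128 for shRcor2-20 and -0.292 to 0.175 for the change with time. Dvl3 ran from -0.026 to 0.115 at 7d over 0h, -0.189 to 0.021 in the knockdown at 7d, -0.114 to 0.026 for shRcor2-20 and -0.066 to 0.145 for the change with time. Lrp5 ran from -0.044 to 0.207 in the knockdown over all times, -0.006 to 0.088 at 24h, -0.039 to 0.193 for shRcor2-18 and -0.049 to 0.238 for shRcor2-20. Fosl1 ran from -1.724 to -1.327 and Crebbp from -0.083 to 0.065 at 7d over 0h, and Snai2 from -0.322 to 0.008 at 7d over 24h. Without the shScramble library of 0h the knockdown at 0h has no value. In the comparisons of times the SE was 0.35 to 0.44 for Plcb3, at about 2 CPM, 0.26 to 0.31 for Fosl1 and 0.23 to 0.28 for Snai2, against 0.08 to 0.14 for Lrp5, Dvl3 and Gsk3b; the part of depth in this was not tested.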
